A study of Mus musculus with 8 samples.

Results

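The taste receptor genes of the mouse fall into the Tas1r genes, which encode sweet and umami receptors, and the Tas2r genes, which encode bitter receptors. Members were all genes in the deposited counts whose symbol begins with Tas1r or Tas2r followed by a number. There were 38 of them among 27179 genes, 3 Tas1r and 35 Tas2r. A further 5 entries of the RefSeq mouse table are pseudogenes, which have no row in these counts. RNA-seq of thymic epithelial cells was made from C57BL/6 mice that were wild-type (WT) or were labelled as knock-outs (KO) of Mcl1, whose protein holds back apoptosis. The design text gives 4 biological replicates of WT cortical thymic epithelial cells (cTEC), 2 of WT medullary cells (mTEC), 1 of KO cTEC and 1 of KO mTEC. The promoter or Cre behind the knockout, the deleted part of Mcl1, the age of the mice, any pooling and whether the KO cTEC and KO mTEC libraries share animals are not stated in the labels. All values come from polyadenylated RNA of cell populations, in which fewer cells of a type and less RNA per cell cannot be told apart.

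Taste receptors are G protein-coupled receptors. TAS1R1 with TAS1R3 responds to amino acids, TAS1R2 with TAS1R3 responds to sugars, and the TAS2R proteins respond to bitter compounds. In taste cells they signal through gustducin (Gnat3), the phospholipase Plcb2, release of calcium from stores and the cation channel Trpm5. The same pathway is used by tuft cells, which are chemosensory epithelial cells of the gut, airways and thymic medulla that depend on the POU-domain factor Pou2f3.

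Total counts were lowest in KO mTEC (11516780) and highest in WT mTEC 1 (19171953). Levels are given as CPM, the counts scaled to a library total of 1000000. A member was called detected at 3 counts or more, which is 0.156 CPM in the deepest library and 0.260 CPM in the shallowest. The level of Mcl1 was 261 ± 32.8 CPM (SD, n = 4) in cTEC of WT mice and 8.36 CPM in those of KO mice. For mTEC these levels were 157 ± 70.3 CPM (SD, n = 2) and 75.6 CPM. The KO difference of Mcl1 passed edgeR's quasi-likelihood test with Benjamini-Hochberg adjustment in cTEC (adjusted p = 0.000295) and did not in mTEC (adjusted p = 0.538). The 8 cTEC markers summed to 6948 CPM in WT cTEC, 9133 in KO cTEC, 1493 in WT mTEC and 1718 in KO mTEC. The 8 markers of mature mTEC summed to 1815 CPM in WT mTEC and 1723 in KO mTEC. They reached 510.2 CPM in WT cTEC and 67.5 CPM in KO cTEC, where Aire, Ccl22 and Tnfrsf8 were at 0 counts. Libraries labelled WT cTEC therefore also held RNA of medullary genes.

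Nearly all members sit in clusters on chromosome 6. Windows from 250 bases before to 50 bases after the gene start were present in the RefSeq promoter table (GRCm38.p6) for 34 of the 38 members. Tas2r121, Tas2r136, Tas2r117 and Tas2r116 were not matched. Of the 34 windows, 29 have ATG at the gene start, so for most Tas2r the model begins at the start codon and the window lies before the coding sequence. Windows were searched on both strands for the octamer ATGCAAAT (ATTTGCAT on the other strand), the letters that POU-domain factors are known to bind. The octamer was in 7 of 34 member windows (20.6%) and in 570 of all 32851 windows (1.74%). The letters CAGCTG, an E-box, were in 5 of 34 member windows (14.7%) against 16.3% of all, and TATAAA was in 10 of 34 (29.4%) against 13.6%. Whether the windows of other genes begin at a start codon was not counted, so these shares may compare unlike stretches. The members are also related genes, mostly in clusters, so their windows are not independent of each other. A match describes letters only and is not evidence of a bound site.

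The stretches around the octamer are shown because Pou2f3, a POU-domain factor, is measured in the same libraries. Each is written 5′ to 3′ along the strand of its gene, with the octamer in capitals. They come from GRCm38.p6 at chr6:23970147-23970214 (minus strand) for Tas2r118, chr6:40491016-40491083 (plus) for Tas2r137, chr6:40493416-40493483 (plus) for Tas2r108 and chr6:42215141-42215208 (plus) for Tas2r144. The others lie at chr6:42405356-42405423 (plus) for Tas2r135, chr6:42434311-42434378 (plus) for Tas2r126 and chr6:131660348-131660399 (minus) for Tas2r107.
Tas2r118: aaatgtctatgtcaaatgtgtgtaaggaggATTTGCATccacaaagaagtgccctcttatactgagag
Tas2r137: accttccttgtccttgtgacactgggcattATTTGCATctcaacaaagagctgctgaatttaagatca
Tas2r108: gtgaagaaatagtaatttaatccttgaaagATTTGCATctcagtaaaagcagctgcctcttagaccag
Tas2r144: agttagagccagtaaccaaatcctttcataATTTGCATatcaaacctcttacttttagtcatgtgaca
Tas2r135: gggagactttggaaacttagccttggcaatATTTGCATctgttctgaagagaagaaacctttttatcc
Tas2r126: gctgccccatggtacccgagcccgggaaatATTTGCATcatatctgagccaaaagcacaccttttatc
Tas2r107: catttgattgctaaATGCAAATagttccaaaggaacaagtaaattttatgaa

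The octamer began between position -236 (Tas2r107) and position -124 (Tas2r118), counted from the gene start. It was on the strand opposite to the gene in 6 of the 7 members and on the same strand in Tas2r107. These 7 lie in 4 of the position groups described below. Their levels were not alike: Tas2r108 was among the highest members in every WT library, and Tas2r144 was under 10 counts in each. For comparison, the sequences before Tas1r3, the subunit shared by the sweet and umami receptors, and before Tas2r105, the member with the most counts, are shown with the E-box of Tas1r3 in capitals. They lie at chr4:155863363-155863603 (minus strand) and chr6:131687496-131687713 (minus strand), and that of Tas2r105 held none of the 3 motifs.
Tas1r3: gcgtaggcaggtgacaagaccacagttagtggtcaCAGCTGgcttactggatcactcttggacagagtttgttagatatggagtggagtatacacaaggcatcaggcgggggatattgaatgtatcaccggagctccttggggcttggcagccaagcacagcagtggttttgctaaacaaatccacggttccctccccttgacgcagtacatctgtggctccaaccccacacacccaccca
Tas2r105: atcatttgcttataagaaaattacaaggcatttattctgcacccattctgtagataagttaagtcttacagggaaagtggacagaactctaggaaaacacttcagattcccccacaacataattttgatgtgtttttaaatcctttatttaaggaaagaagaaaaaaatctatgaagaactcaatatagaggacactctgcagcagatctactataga

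WT thymic epithelial cells held transcripts of almost the whole family, and the KO cTEC library held none of the bitter receptors. The members detected were 28, 35, 34 and 31 of 38 in WT cTEC libraries 1 to 4, and 29 and 30 in WT mTEC libraries 1 and 2. KO mTEC had 21, and KO cTEC had 2. At 1 count or more, the members were 31, 35, 36 and 32 in WT cTEC libraries 1 to 4. They were 33 in each WT mTEC library, 26 in KO mTEC and 2 in KO cTEC. Of all 27179 genes, 19979, 19765, 20405 and 18704 had a count in WT cTEC libraries 1 to 4. In WT mTEC these were 22367 and 22708, in KO mTEC 20303 and in KO cTEC 17800. In all, 36 members were detected in at least 1 library, 27 in every WT cTEC library and 23 in all 6 WT libraries. The other 2 were Tas2r143, at 0 counts everywhere, and Tas2r122, with 1 count in WT mTEC 2.

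**Figure D1:**
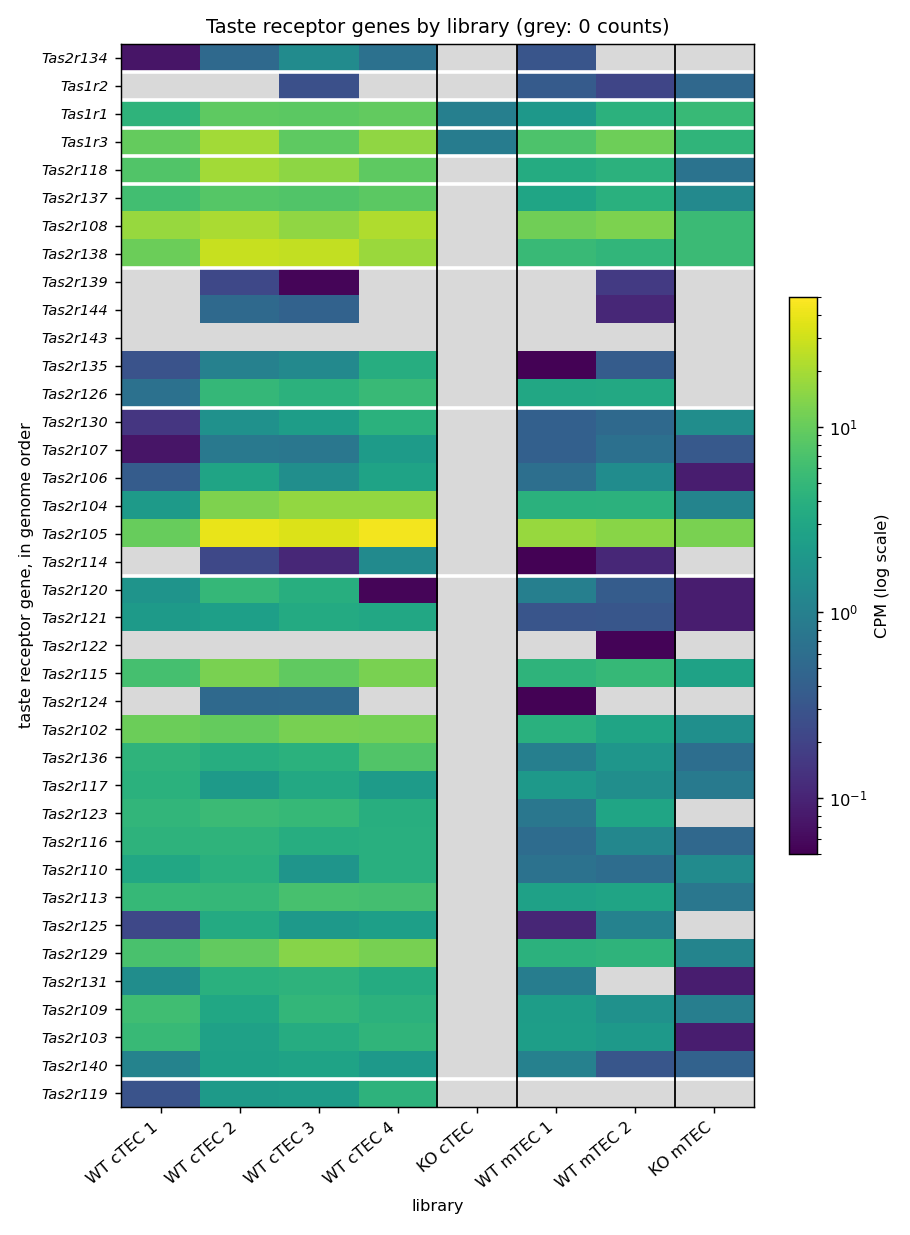
CPM (log colour scale) of the 38 taste receptor genes, in genome order from top to bottom, in the 8 libraries. Grey cells hold 0 counts, white lines divide position groups and black lines divide sample groups. The KO cTEC column is grey for all but Tas1r1 and Tas1r3, and the WT cTEC columns are mostly filled.

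Other chemosensory receptor families, counted the same way, were detected less broadly in WT cTEC. Of the 38 taste receptors, 73.7% to 92.1% were detected in the WT cTEC libraries, and 76.3% and 78.9% in WT mTEC. Odorant receptors (Olfr, 1126 genes) had 26 to 33 genes detected in WT cTEC and 117 and 161 in WT mTEC. The vomeronasal Vmn1r family (230 genes) had 0 to 4 detected in WT cTEC against 10 and 16 in WT mTEC, and Vmn2r (123 genes) had 4 to 7 against 11 and 19. Of 15 trace amine receptors (Taar), 3 were detected in WT cTEC 1, 0 in the other WT cTEC libraries, and 4 and 6 in WT mTEC. In these 4 families more genes were detected in each WT mTEC than in any WT cTEC library, whereas the taste receptor numbers of the WT groups overlapped. Over all 27179 genes, those with at least 1 count were also more in each WT mTEC (22367 and 22708) than in any WT cTEC library (18704 to 20405). Total counts were 19171953 and 18671044 in WT mTEC and at most 18338441 in WT cTEC. These are counts without a test.

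**Figure D2:**
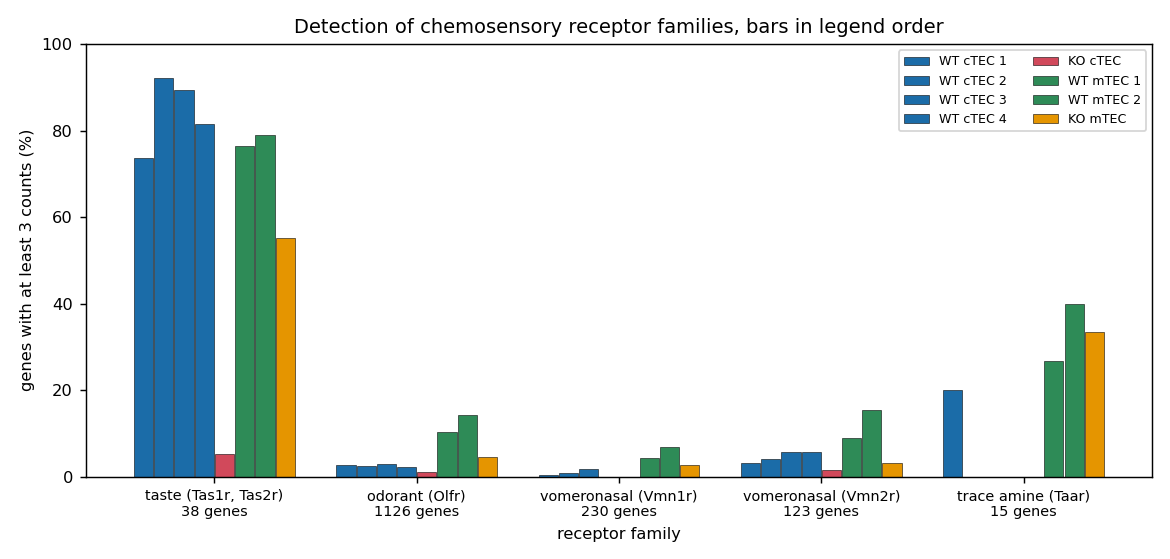
Share of genes (%) with at least 3 counts in each of 5 chemosensory receptor families, with 1 bar per library in the order of the legend. Taste receptors stand at 73.7% to 92.1% in WT cTEC, 5.26% in KO cTEC and 55.3% in KO mTEC, and no odorant or vomeronasal bar passes 20%.

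Among the Tas1r genes, the umami pair was present in every library and the sweet subunit was nearly absent. Tas1r1 (Entrez 110326, chromosome 4, 152027914 to 152038490, mm10) stood at 4.44, 9.02, 8.72 and 9.40 CPM over the WT cTEC libraries in order, at 0.979 in KO cTEC, at 1.98 and 4.18 in WT mTEC, and at 5.30 in KO mTEC. The WT cTEC libraries were all above the WT mTEC libraries, and KO mTEC was above both WT mTEC libraries. Tas1r3 (Entrez 83771, chromosome 4, 155859268 to 155863353) stood at 9.77, 19.2, 9.0 and 16.0 CPM in WT cTEC, 0.914 in KO cTEC, 7.30 and 10.9 in WT mTEC, and 4.60 in KO mTEC. Here the WT groups overlapped, and each KO library was below all WT libraries of its population. Tas1r2 (Entrez 83770, chromosome 4, 139653538 to 139670280), the sweet-specific subunit, had 5 counts in WT cTEC 3 and 0 in the other WT cTEC libraries and in KO cTEC. It had 7 and 4 counts in WT mTEC and 6 in KO mTEC.

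Read assignment limits 2 of these genes. Of the 75-base stretches in Tas1r2 transcripts, 44.8% also occur in the predicted gene Gm21969, so its low counts are uncertain. Tas1r3 overlaps Dvl1 by 36 bases in the RefSeq mouse table. A library kit that marks strand is not named in the labels, so reads in that overlap cannot be told apart.

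The bitter receptors carried most of the family's reads. Their summed level was 124, 223, 217 and 227 CPM in WT cTEC libraries 1 to 4 and 77.7 and 80.8 CPM in WT mTEC. It was 39.9 CPM in KO mTEC (459 counts, exact Poisson 95% interval 36.3 to 43.7) and 0 in KO cTEC. The WT groups did not overlap, and the WT cTEC mean (197.8 ± 49.5 CPM, SD, n = 4) was 2.50 times the WT mTEC mean (79.2 ± 2.16 CPM, n = 2). Within WT cTEC, library 1 lay apart from the other 3. Intervals and floors here cover counting error only, since reads carry no molecular identifiers.

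**Figure D3:**
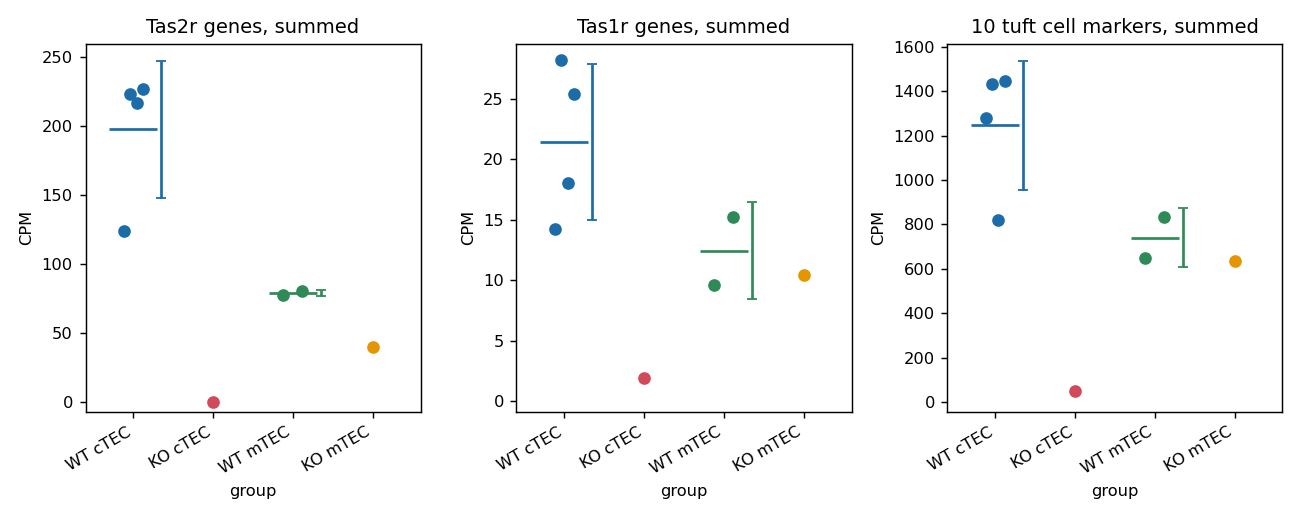
Summed CPM of the 35 Tas2r genes, the 3 Tas1r genes and 10 tuft cell markers, 1 point per library, by group. Horizontal lines are group means and vertical bars are 1 SD for WT cTEC (n = 4) and WT mTEC (n = 2). The KO cTEC point is lowest in each panel (0, 1.89 and 48.9 CPM).

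A few receptors made up much of this sum. Tas2r105, Tas2r138 and Tas2r108 together gave 36.3% of the Tas2r CPM in WT cTEC, 41.7% in WT mTEC and 59.0% in KO mTEC. Tas2r105 (Entrez 57252, chromosome 6, 131686561 to 131687463), the mouse cycloheximide receptor, stood at 9.92, 39.3, 34.5 and 44.1 CPM in WT cTEC, 0 in KO cTEC, 17.1 and 14.8 in WT mTEC, and 12.4 in KO mTEC. WT cTEC 1 was below both WT mTEC libraries and the other WT cTEC libraries were above them. Its share of all Tas2r counts was 8.0% in WT cTEC 1, 15.9% to 19.4% in the other WT cTEC libraries, 21.9% and 18.4% in WT mTEC, and 31.2% in KO mTEC.

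Tas2r108 (Entrez 57253, chromosome 6, 40493592 to 40494485), which responds to denatonium, was the steadier of the abundant members. It stood at 17.2, 20.6, 15.7 and 22.2 CPM in WT cTEC, 0 in KO cTEC, 11.2 and 12.9 in WT mTEC, and 5.56 in KO mTEC. All WT cTEC libraries were above both WT mTEC libraries, and it was the top Tas2r in WT cTEC 1. Tas2r138 (Entrez 387513, chromosome 6, 40612315 to 40613310), the mouse counterpart of the human receptor for phenylthiocarbamide, stood at 10.7, 28.0, 26.8 and 17.9 CPM in WT cTEC. It was 0 in KO cTEC, 5.42 and 4.77 in WT mTEC and 5.56 in KO mTEC, so that KO mTEC was at the level of WT mTEC.

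Per kilobase of counted length, which allows levels of different genes to be compared, Tas2r105 led in WT cTEC with 35.4 CPM per kb. Tas2r108 (21.2) and Tas2r138 (20.9) followed, and then Tas2r118 (14.2), Tas2r104 (13.2), Tas2r129 (11.1), Tas2r115 (10.9) and Tas2r102 (10.6). The ranges of neighbours in this order overlapped over the 4 libraries. Tas1r3 (3.83 CPM per kb) and Tas1r1 (2.84) were within the range of the lower Tas2r genes. In WT mTEC the order began with Tas2r105 (17.7 CPM per kb) and Tas2r108 (13.4), whose CPM did not overlap in the 2 libraries. Tas2r115 (5.13), Tas2r138 (5.12), Tas2r104 (4.62), Tas2r129 (4.53) and Tas2r118 (4.32) came next, close together. The counted lengths of all Tas2r genes but Tas2r119 are multiples of 3, as coding lengths are, and they equal the span of the gene for all but Tas2r107.

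Below these leaders, 6 members were steady across the WT cTEC libraries. Tas2r102 stood at 10.7, 9.70, 12.1 and 11.7 CPM, Tas2r137 at 6.14, 8.04, 7.63 and 8.85, and Tas2r113 at 5.11, 4.96, 6.71 and 6.39. Tas2r116 ranged from 3.71 to 4.51 CPM, Tas2r123 from 3.77 to 5.49 and Tas2r121 from 2.15 to 3.38. Each of these was lower in both WT mTEC libraries than in any WT cTEC library, as were 26.7% of all genes tested. Tas2r115 (6.51 to 12.6 CPM), Tas2r129 (6.96 to 14.2), Tas2r136 (3.68 to 7.59), Tas2r109 (3.08 to 6.07), Tas2r103 (2.63 to 5.26), Tas2r117 (2.18 to 4.07), Tas2r110 (1.85 to 3.98), Tas2r131 (1.48 to 4.31) and Tas2r140 (1.11 to 2.78) varied more and also did not overlap with WT mTEC.

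The remaining detected members varied most between WT cTEC libraries. Over the 31 members with a count in all 4, the highest library was 2.15 times the lowest at the median, and 10 members passed 5-fold. Tas2r104 had 29 counts in library 1 (2.15 CPM) and stood at 13.1, 16.5 and 16.4 CPM in libraries 2 to 4, a 7.67-fold range. Tas2r126 stood at 0.666, 4.96, 4.25 and 5.35 CPM, an 8.04-fold range. Library 1 also held under 6 counts of Tas2r135, Tas2r130, Tas2r107, Tas2r106, Tas2r134, Tas2r125 and Tas2r119, whose highest libraries reached 3.71, 4.15, 2.24, 2.86, 1.42, 3.38 and 4.37 CPM. Tas2r120 went the other way, with 24, 67 and 70 counts in libraries 1 to 3 and 1 count in library 4. Tas2r114 peaked in library 4 at 1.37 CPM and was at 0 to 3 counts in the others. Tas2r144 (7 and 8 counts) and Tas2r124 (7 and 10 counts) were seen in WT cTEC 2 and 3 and at 0 in WT cTEC 1 and 4, and Tas2r139 had at most 3 counts in any library.

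The Tas2r sums were also taken by position on chromosome 6, as a description. Members within 500000 bases of each other were taken as a group, which gave 4 groups of more than 1 gene. The 6 genes at 131629892 to 131690063 (Tas2r130, Tas2r107, Tas2r106, Tas2r104, Tas2r105 and Tas2r114) summed to 12.7 CPM in WT cTEC 1 and to 58.0, 55.7 and 71.1 CPM in libraries 2 to 4. The 5 genes at 42140936 to 42435461 (Tas2r139, Tas2r144, Tas2r143, Tas2r135 and Tas2r126) summed to 0.962 CPM in library 1 and to 6.77, 6.05 and 9.07 CPM in the others. The 18 genes at 132656957 to 133055793 differed less, with 68.1 CPM in library 1 and 79.9, 85.9 and 84.3 CPM in the others. The 3 genes at 40491238 to 40613310 (Tas2r137, Tas2r108 and Tas2r138) summed to 34.1 CPM in library 1 and to 56.6, 50.1 and 48.9 CPM in the others. Library 1 was thus the lowest in each of these 4 groups, by the most CPM in the group of 6 genes. Its tuft marker sum was 1280 CPM, inside the range of the others (822 to 1447), and its mature mTEC marker sum, 775.4 CPM, was above theirs (375.1 to 460.4). The part of cell makeup in this was not tested.

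In WT cells, 7 bitter receptors were lower in mTEC than in cTEC and 20 of the 27 tested did not pass. Of the 38 members, 29 reached 1 CPM in at least 2 libraries and were tested, all of them through the WT cTEC libraries alone and 16 through the WT mTEC libraries alone. Since this filter favours members that are high in WT cTEC, counts over the 29 are descriptions. By edgeR's quasi-likelihood test 7 members were lower in WT mTEC and 0 were higher, where 13.9% of all 18163 genes were called lower, 13.2% higher and 27.0% either way. All 29 estimates were below 0, with a median log2 fold change of -1.48 against 0.06 over all genes tested. Both WT mTEC libraries were below every WT cTEC library for 20 of the 29, and this held for 26.7% of all genes tested. The 7 called were Tas2r102, Tas2r110, Tas2r116, Tas2r118, Tas2r119, Tas2r121 and Tas2r138.

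The called members had both WT mTEC libraries below every WT cTEC library. Tas2r138 was lower by a log2 fold change of -1.98 ± 0.45 (SE, adjusted p = 0.0162). Tas2r102, at 3.96 and 2.84 CPM in WT mTEC, gave -1.64 ± 0.39 (adjusted p = 0.0179). Tas2r121, at 0.313 and 0.321 CPM in WT mTEC, had the lowest estimate with a count in both groups, -3.07 ± 0.78 (adjusted p = 0.0234). Tas2r118 (Entrez 387347, chromosome 6, 23969161 to 23970060) lies apart from the clusters and stood at 7.70, 19.1, 15.5 and 8.90 CPM in WT cTEC and 3.49 and 4.28 in WT mTEC. Its log2 fold change was -1.67 ± 0.49 (adjusted p = 0.0375). Tas2r116 (0.574 and 1.23 CPM in WT mTEC) gave an adjusted p of 0.0382 and Tas2r110 (0.678 and 0.589 CPM) gave 0.0457.

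Tas2r119 (Entrez 57254, chromosome 15, 32177289 to 32178294), the only member on that chromosome, was at 0.296, 2.18, 2.29 and 4.37 CPM in WT cTEC. It had 0 counts in both WT mTEC libraries and in both KO libraries. Its WT cTEC mean was at least 14.4-fold higher than 3 counts per WT mTEC library would give (adjusted p = 0.0220). The gene lies inside the span of the long noncoding RNA Gm32499 in the RefSeq mouse table.

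Of the 3 members with the highest WT cTEC level, Tas2r138 was called and the other two were not. Tas2r105 had a log2 fold change of -0.96 ± 0.53 (adjusted p = 0.206) and Tas2r108 of -0.61 ± 0.27 (adjusted p = 0.129). Tas1r1 had -1.33 ± 0.52 (adjusted p = 0.0899) and Tas1r3 -0.53 ± 0.41 (adjusted p = 0.366). Tas2r126 was nearest to 0, with -0.23 ± 0.79 (adjusted p = 0.853) and 3.13 and 3.21 CPM in WT mTEC. The count of 7 rests on few libraries. It was 13 without WT cTEC 1, 4 without WT cTEC 2 and 2 without WT cTEC 3. Leaving out either WT mTEC library, which leaves 1 in that group, kept no call of the 7. Summed tuft markers went from 1245.5 ± 292 CPM in WT cTEC (n = 4) to 740.3 ± 132 CPM in WT mTEC (n = 2). The libraries overlapped, at 822 to 1447 CPM in WT cTEC and 647 and 834 CPM in WT mTEC. Of the 10 tuft markers, 3 were called lower in WT mTEC and 0 higher, where 13.9% of all genes were called lower. Fibroblast markers went from 839.6 to 150.7 CPM, and dendritic cell and macrophage markers from 184.8 to 900.5 CPM. The part of these in the result was not tested.

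**Figure D4:**
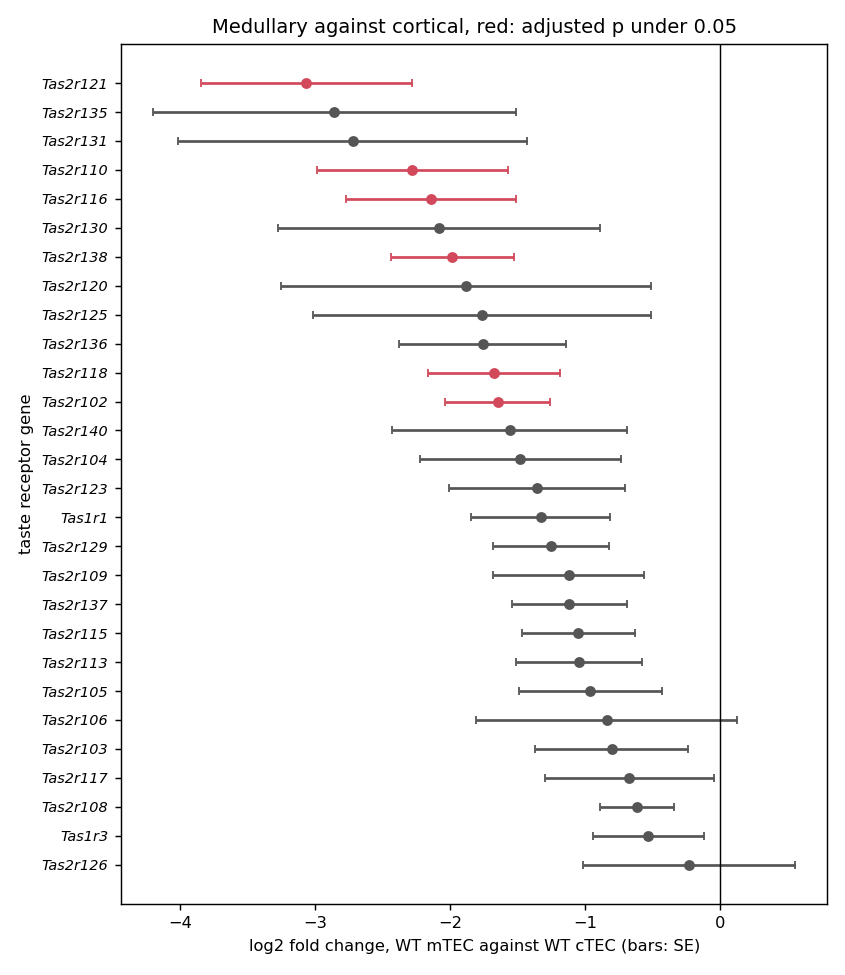
Log2 fold change of WT mTEC against WT cTEC, with bars of 1 SE, for the 28 tested members with a count in WT mTEC. Red marks an adjusted p under 0.05, and Tas2r119, at 0 counts in WT mTEC, is left out because its fitted value is no bound. All points lie below 0, from -3.07 (Tas2r121) to -0.23 (Tas2r126).

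In cTEC, bitter receptor transcripts were absent from the KO library at its depth. All 35 Tas2r genes had 0 counts in KO cTEC, which allows up to 3 counts or 0.196 CPM for any gene. Against 3 counts for the whole sum, the WT cTEC mean of the summed Tas2r level was at least 1010-fold higher. Against 3 counts per gene, a lower bound could be given for 32 Tas2r genes. These bounds ran from 1.23 to 163 with a median of 18.2, and they measure the WT level as much as the loss. The WT mean was at least 163-fold higher for Tas2r105, 106-fold for Tas2r138, 96.6-fold for Tas2r108 and 65.4-fold for Tas2r118. It was at least 61.4-fold higher for Tas2r104, 56.5-fold for Tas2r102, 54.6-fold for Tas2r129, 52.1-fold for Tas2r115 and 39.1-fold for Tas2r137.

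The umami subunits were lower but not absent. Tas1r1 had 15 counts in KO cTEC, a log2 fold change of -3.01 ± 0.80 (adjusted p = 0.0343), and Tas1r3 had 14 counts, a log2 fold change of -3.87 ± 0.71 (adjusted p = 0.00775). The call of Tas1r1 was lost without WT cTEC 2, WT cTEC 3 or either WT mTEC library (adjusted p from 0.0508 to 0.0694). Their summed level was 21.4 ± 6.45 CPM in WT cTEC (n = 4) and 1.89 CPM in KO cTEC (29 counts, exact Poisson 95% interval 1.27 to 2.72), an 11.3-fold difference. In all, 22 of the 29 tested members were called lower by edgeR's test and 0 higher. Over all genes, 12.4% were called lower, 5.1% higher and 17.5% either way. KO cTEC lay below every WT cTEC library for 31 of the 38 members and for all 29 tested, and for 33.0% of all genes tested. All 29 passed the filter through the WT cTEC libraries, the group that KO cTEC is set against. Counts over the 29 are therefore descriptions and not comparable with the shares of all genes.

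Adjusted p-values were smallest for Tas2r108 (0.000199), Tas2r102 (0.00066), Tas2r138 (0.00109), Tas2r115 (0.00111), Tas2r129 (0.00116) and Tas2r137 (0.00123), and that of Tas2r105 was 0.00304. The 7 tested members that were not called, Tas2r106, Tas2r119, Tas2r120, Tas2r125, Tas2r130, Tas2r131 and Tas2r135, had adjusted p-values of 0.0614 to 0.123 with 0 counts in KO cTEC. All but Tas2r131 were among those that varied over 5-fold between WT cTEC libraries. KO cTEC is 1 library, assumed to vary like the others. The count of 22 was 19 to 26 when single WT libraries were left out, 29 by DESeq2 and 4 by limma-voom.

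Genes that act downstream of the receptors were also lower in KO cTEC. Of 11 measured genes of taste transduction, 6 were called lower in KO cTEC and 0 higher, where 12.4% of all genes were called lower and 5.1% higher. Gnat3, the gustducin alpha subunit, fell from 276.2 ± 46.1 CPM in WT cTEC to 0 counts, and Trpm5 from 231 ± 62.7 CPM to 0 counts, at least 1410-fold and 1179-fold. Rgs21, a regulator of G protein signalling in taste cells, fell from 5.35 CPM to 0 counts. Plcb2 (111.8 CPM) and Gng13 (48.7 CPM) were each at 1 count in KO cTEC, and Gnb3 went from 335.9 to 1.24 CPM. Gnb1, Itpr3, Trpm4, Entpd2 and Calhm1 did not pass the test. Itpr3, which many cell types express, stood at 31.8 ± 9.72 CPM in WT and 30.5 CPM in KO cTEC.

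Genes of receptor transport, other taste channels and other tuft receptors were read in the same way. Of 4 tested genes of receptor transport, Reep1 was lower in KO cTEC (log2 fold change -1.97 ± 0.58, adjusted p = 0.0490) and 3 were not called. The call of Reep1 was kept in 3 of 11 alternative analyses. Of 4 tested sour and salt taste channels, 0 were called in KO cTEC. At an unadjusted p under 0.05 there were 2 of these. Of 2 tested other receptors of tuft cells, 1 was called lower in KO cTEC and Ffar3 was not called. The called gene was the succinate receptor Sucnr1, which fell from 3.14 CPM in WT cTEC to 0 counts (adjusted p = 0.00446).

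The 5 tuft lineage factors reported here, Pou2f3, Spib, Gfi1b, Hmx2 and Hmx3, were all called lower in KO cTEC. Of all genes, 12.4% were called lower. Pou2f3 fell from 74.0 ± 14.3 to 22.2 CPM, a log2 fold change of -1.74 ± 0.30 (adjusted p = 0.00615). Spib fell from 254.9 to 1.24 CPM (-7.68 ± 0.64, adjusted p = 0.000228). Gfi1b, Hmx2 and Hmx3 were at 0 counts, and the call of Hmx2 was lost in some alternative analyses. Pou2f3 had 340 counts in KO cTEC, where every Tas2r gene, the 7 with the octamer included, had 0 counts. A link between Pou2f3, the octamer and the receptor levels was not tested. The 10 tuft markers were all lower, from 1245.5 to 48.9 CPM in sum, a 25.5-fold difference, with Chat, Hepacam2 and Rgs13 at 0 counts. Other marker sums also differed between WT and KO cTEC. Mature mTEC markers went from 510.2 to 67.5 CPM, dendritic cell and macrophage markers from 184.8 to 11.2 CPM, B cell markers from 19.3 to 0.653 CPM and thymocyte markers from 81.5 to 33.2 CPM. Erythroid markers went from 51.2 to 657 CPM. The part of these markers in the loss of the receptors was not tested.

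In mTEC, 21 of the 38 members were detected in the KO library, and 0 passed the test against WT. The summed Tas2r level was 1.99 times as high in WT as in KO mTEC, and the summed Tas1r level was 12.5 ± 3.97 CPM in WT (n = 2) and 10.4 CPM in KO (120 counts, exact Poisson 95% interval 8.64 to 12.5). KO mTEC was below both WT libraries for 24 of the 38 members and above both for 5, which were Tas1r1, Tas1r2, Tas2r138, Tas2r130 and Tas2r110. Over the 29 tested, these counts were 22 and 4, and the shares of all genes tested were 43.7% below and 35.9% above. By edgeR's quasi-likelihood test 0 of the 29 members and 0 of 18163 genes (0.0%) were called. Unadjusted p-values were under 0.05 for 7 members and 1502 genes in all. DESeq2 called 0 members and 139 genes in all.

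At an unadjusted p under 0.05, 7 members were lower in KO mTEC, namely Tas2r103, Tas2r108, Tas2r113, Tas2r118, Tas2r123, Tas2r126 and Tas2r129. Tas2r126, at 60 counts in each WT mTEC library, had 0 counts in KO mTEC, so that the WT mean was at least 12.2-fold higher (adjusted p = 0.440). Tas2r123 had 15 and 54 counts in WT and 0 in KO, at least 7.05-fold (adjusted p = 0.370). Tas2r103 had 46 and 38 counts in WT and 1 in KO, and Tas2r118 went from 3.89 to 0.695 CPM, a 5.60-fold difference (adjusted p = 0.496). KO mTEC was the shallowest library, and 12 members had 0 counts there. The 5 genes around Tas2r126 summed to 3.52 CPM in WT mTEC and 0 in KO mTEC. The 18 genes at 132656957 to 133055793 summed to 28.9 and 11.3 CPM.

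Transduction and lineage genes were present in KO mTEC. Trpm5 was at 72.7 ± 12.2 CPM in WT (n = 2) and 73.3 CPM in KO mTEC, and Pou2f3 at 67.0 ± 0.545 and 62.4 CPM. Gnat3 was at 167.8 ± 8.45 and 131.5 CPM. Of the 11 transduction genes and 5 lineage factors, 0 were called by edgeR, and 0 of these had an unadjusted p under 0.05. Tuft markers summed to 740.3 ± 132 CPM in WT and 635.6 CPM in KO mTEC. For each 100 CPM of tuft markers there were 12 and 9.69 CPM of Tas2r in WT mTEC, 6.27 in KO mTEC, and 9.68 to 26.4 in WT cTEC. Fibroblast markers were at 150.7 CPM in WT and 930.5 CPM in KO mTEC and erythroid markers at 63.9 and 1448 CPM, and their part in the receptor levels was not tested.

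The difference of the KO effects between mTEC and cTEC was tested by an interaction contrast in the same fit. Mcl1 itself went from 261 CPM in WT to 8.36 CPM in KO cTEC, and from 157 to 75.6 CPM in mTEC. The part of this unequal difference of Mcl1 in the contrast was not tested. The contrast was called for 13 of the 29 members, each with the lower log2 fold change in cTEC, and for 0 in the other direction. Over all genes 6.81% were called, 6.16% with the lower value in cTEC. Every tested Tas2r gene had 0 counts in KO cTEC, so a call in the other direction was not open to these genes. Tas2r119, Tas2r123, Tas2r125, Tas2r126 and Tas2r135 had 0 counts in both KO libraries, so the contrast could not be estimated for them. The 13 were Tas2r102, Tas2r105, Tas2r108, Tas2r109, Tas2r110, Tas2r113, Tas2r115, Tas2r116, Tas2r118, Tas2r129, Tas2r136, Tas2r137 and Tas2r138. The adjusted p was 0.00112 for Tas2r108, 0.00318 for Tas2r138 and 0.0109 for Tas2r105. Tas1r1 (adjusted p = 0.0631) and Tas1r3 (adjusted p = 0.0872) were not called. The count was 7 without either WT mTEC library in turn and 0 by limma-voom. The KO libraries are the same ones as in the comparisons above, so this contrast adds no samples to them. All 29 members passed the filter through the WT cTEC libraries, so counts over them are again descriptions.

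Pathway genes were also compared between the WT populations, where 27.0% of all genes were called. Of the 11 transduction genes, Trpm5 (log2 fold change -1.62 ± 0.28, adjusted p = 0.00580) and Gnat3 (-0.67 ± 0.19, adjusted p = 0.0329) were lower in WT mTEC and 0 were higher. Rtp4, a chaperone that helps receptors reach the cell surface, was lower in WT mTEC (-0.85 ± 0.20, adjusted p = 0.0174) and Reep1 was higher (1.29 ± 0.36, adjusted p = 0.0324). The sodium channel subunit Scnn1a was lower (-1.02 ± 0.18, adjusted p = 0.00586). The lineage factor Pou2f3 was not called (-0.09 ± 0.21, adjusted p = 0.764). Each of these 5 calls was lost when either WT mTEC library was left out, with adjusted p-values from 0.0563 (Rtp4) to 0.294 (Reep1).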

How the data were processed

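Per the labels' protocols, frozen cell pellets were extracted, and cDNA amplified with a kit for low input was tagmented and read as 75-base paired ends. The authors deposited raw counts per Entrez gene, which are whole numbers without normalization, made with featureCounts on mm10 per the submitters' processing notes. For the aligner, annotation and versions, nothing is given in the sources used here. A deposited series-wide table has 8 columns that match no sample label and was not used. Symbols came from the RefSeq mouse table, in which 25275 of 27179 identifiers matched. Length from the deposited files was used only for CPM per kilobase.

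CPM is the count scaled to a library total of 1000000. The 18163 genes that reached 1 CPM in 2 or more libraries were normalised by TMM, and tests used the two-sided quasi-likelihood F test of edgeR 4.0.16 (limma 3.58.1, R 4.3.3), with 1 mean per group over all 8 libraries. Calls needed an adjusted p (Benjamini-Hochberg, over all genes) under 0.05. The fit was also run on simulated counts with the same spread for all genes. That run does not stand for members that vary widely between libraries or have 0 counts in a group. Since both KO groups hold 1 library, they were assumed to vary like the WT libraries, and p-values measure the spread between these samples. The KO and WT comparisons share libraries. Alternatives were RLE size factors, other filters, DESeq2 1.42.0, limma-voom, leaving out each WT library, a replicate block, other detection limits and sums without the top member.

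The members and the lists of pathway and marker genes were chosen with earlier results of these data known. Every member with at least 3 counts in a library is named. Counts of calls are given for each pathway list in KO cTEC, and in other comparisons for some lists only. Values are given for the genes a result turns on. The cause of any difference was not tested. Calhm3 of the transduction list was not matched. A member of the lineage factor list is not reported here. For Tas2r117 27.3% of 75-base transcript stretches occur in other genes, for Tas2r110 and Tas2r123 4.96%, and for Tas2r109 0.912%, so reads of these may be shared.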

Additional observations from a re-analysis of the deposited data

Results flagged for a closer look

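Within the 4 WT cTEC libraries, 39 quantities (the CPM of 36 members with a count there, the Tas1r sum, the Tas2r sum and the number of members detected) were examined for a library far from the other 3, measured as the gap to the nearest library divided by the whole range. Chance marks about 1 in 20 such groups, and 4 were found. Tas1r2 had counts in WT cTEC 3 alone (gap over range 1.0). Tas1r1 was low in WT cTEC 1 (0.864), and Tas2r114 was high in WT cTEC 4 (0.835). The summed Tas2r CPM was low in WT cTEC 1 (0.9).

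For 13 Tas2r genes the KO effect differed between mTEC and cTEC by edgeR's interaction test with Benjamini-Hochberg adjustment. The log2 fold change of KO against WT was lower in cTEC for each. Of these genes, Tas2r110 and Tas2r138 were not lower in KO mTEC, where they stood above both WT mTEC libraries. The adjusted p-values were 0.00112 for Tas2r108, 0.00318 for Tas2r138, 0.00375 for Tas2r102, 0.00553 for Tas2r115 and 0.0088 for Tas2r137. They were 0.0109 for Tas2r105, 0.0119 for Tas2r129, 0.0196 for Tas2r113, 0.0197 for Tas2r110 and 0.0272 for Tas2r118. For Tas2r109, Tas2r116 and Tas2r136 they were 0.028, 0.0321 and 0.0386. All 13 had 0 counts in KO cTEC, and each KO group was 1 library.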

How the results depend on the processing

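No called result reversed its direction under any alternative that was run. Of WT mTEC against WT cTEC, the 7 members and 4912 genes called became 0 to 13 members and 603 to 6762 genes when single WT libraries were left out, with 3176 genes without WT cTEC 3 and 1162 without WT mTEC 1. With the replicate block on WT libraries numbered 1 and 2, 0 members and 2094 genes were called. The same 4 libraries without the block, an alternative chosen after seeing the data, gave 2 members and 2823 genes. Same-numbered libraries did not deviate together (correlations of -0.146 and -0.0194), so the numbers share no pairing that the data show. Of KO against WT in cTEC, limma-voom called 4 members against 22 and 1726 genes against 3179, and leaving out single libraries gave 19 to 26 members. Of KO against WT in mTEC, 0 genes became 139 by DESeq2 and up to 7 when single libraries were left out. Of the difference of the KO effects, 13 members and 1236 genes became 0 members and 104 genes by limma-voom and 2050 genes by DESeq2, and 7 to 16 members and 649 to 1849 genes when single libraries were left out. Without Tas1r3 the summed Tas1r level was 7.96 CPM in WT cTEC, 0.979 in KO cTEC, 3.37 in WT mTEC and 5.82 in KO mTEC. Without Tas2r105 the summed Tas2r level was 63.3 CPM in WT mTEC and 27.4 in KO mTEC. RLE size factors moved the median of all genes by at most 0.06 (log2). Depth limits the members under 10 counts, 14 of 38 in KO mTEC reaching that number, and a count of 0 in KO cTEC allows 0.196 CPM.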
